A study of Mus musculus with 16 samples.

Results

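The genes described are 10 components of the neuronal cytoskeleton out of 53379 gene IDs in the files: the neurofilament subunits Nefl, Nefm and Nefh, the other neuronal intermediate filament genes Prph and Ina, the microtubule-associated protein genes Map2, Mapt, Map1a and Map1b, and Tubb3, which encodes beta-III tubulin. They were picked by gene symbol, with earlier results of these data known, and each was found once in all 16 libraries. RNA was taken from dorsal root ganglia of naive female and male mice aged 8 to 12 weeks, of the genotype Nav1.8Cre/Rosa26fstrap on C57BL/6J, in which Cre driven by the Scn10a promoter turns on ribosomal protein L10a fused to EGFP in neurons that use the sodium channel Nav1.8. Ganglia of 3 mice of one sex made a pool, 4 pools per sex and 24 mice in all. Every pool gave a library of total RNA from the whole ganglion (IN) and a library of RNA pulled down with the tagged ribosomes (IP), so there were 4 groups of 4 libraries: female IN, female IP, male IN and male IP. Mice of all 4 groups carried both alleles, and the comparison was between RNA fractions and between sexes, with no drug or injury. The Scn10a promoter is active in most nociceptors and also in some neurons with myelinated axons, and a pulldown from ganglia without the tag was not analysed here.

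Neurofilaments are assembled from a light, a medium and a heavy subunit, and their amount sets the calibre of large myelinated axons, where they are most abundant. Peripherin co-assembles with them in peripheral neurons and is the typical intermediate filament of small, mostly unmyelinated sensory neurons. Microtubule-associated proteins bind the lattice built of tubulin dimers. MAP2 is known from dendrites and cell bodies, tau from axons, MAP1A from mature neurons and MAP1B from growing axons, and sensory neurons keep MAP1B into adult life.

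Of the 10 genes, 6 had an entry in the promoter table from RefSeq (GRCm38.p6), namely Prph, Ina, Map2, Map1a, Map1b and Tubb3, and Nefl, Nefm, Nefh and Mapt had none. The 250 bases before the RefSeq start are shown for Prph and Tubb3, which had the highest IP to IN changes of the 10. They are also shown for Map2, which had the lowest. They lie at chr15:99054924-99055173, chr8:123411303-123411552 and chr1:66175079-66175328, all on the plus strand. Capitals mark the TATA box (TATAAA), the CCAAT box (CCAAT) and the GC box (GGGCGG), each searched on both strands, so that some read as ATTGG or CCGCCC.
Prph: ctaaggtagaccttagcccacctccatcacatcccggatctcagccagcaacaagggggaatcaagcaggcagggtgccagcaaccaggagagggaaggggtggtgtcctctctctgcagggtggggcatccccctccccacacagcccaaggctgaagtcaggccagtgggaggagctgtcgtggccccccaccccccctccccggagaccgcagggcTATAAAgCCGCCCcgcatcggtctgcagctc
Tubb3: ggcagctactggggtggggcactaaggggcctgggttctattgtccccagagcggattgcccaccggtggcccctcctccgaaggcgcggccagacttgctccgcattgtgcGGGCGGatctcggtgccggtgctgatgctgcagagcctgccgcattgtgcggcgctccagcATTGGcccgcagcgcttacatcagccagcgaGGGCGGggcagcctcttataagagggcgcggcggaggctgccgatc
Map2: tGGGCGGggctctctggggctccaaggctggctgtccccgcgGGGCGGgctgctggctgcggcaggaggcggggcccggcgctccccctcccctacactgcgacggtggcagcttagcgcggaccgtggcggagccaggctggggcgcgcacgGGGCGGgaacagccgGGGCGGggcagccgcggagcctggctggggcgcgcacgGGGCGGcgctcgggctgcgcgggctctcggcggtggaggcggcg
The Prph window held TATAAA 31 bases before the start, followed by a GC box at 24. Tubb3 held a CCAAT box at 77 and GC boxes at 138 and 46, and Map2 held 5 GC boxes and neither of the other motifs. The RefSeq starts of these 2 genes lie downstream of the gene starts in the deposited files (chr8:123411424 and chr1:66175273). The Tubb3 motifs at 77 and 46 and the Map2 GC box at 44 therefore lie inside the genes as deposited. Among the other windows, Map1b held TATAAA at 99 and a GC box at 39, Map1a a CCAAT box at 58 and 4 GC boxes, and Ina 2 GC boxes. Over all 32851 windows of that length, 12.4% held TATAAA, 33.8% CCAAT and 32.7% the GC box. The GC content of the 6 windows ran from 65.2% in Prph to 81.2% in Map2, against a median of 52.4% over all windows.

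The deposited values were TPM, which correct for transcript length and sum to the same total in each library, but keep no read counts, and the depth is unknown. The 8 most abundant entries took 70.05% to 78.0% of the TPM in IN and 9.19% to 41.7% in IP. Libraries were therefore scaled by the median of ratios, and levels below are scaled TPM unless called deposited. Scn10a, the gene whose promoter drives the tag, was at 108 to 143 in IN and 282 to 444 in IP, higher in 8 of 8 pools. Of 16 nociceptor markers 16 were higher in IP (median log2 1.51, summed level 1212 to 1452 in IN and 3122 to 4442 in IP). Of 14 markers of large-diameter neurons 12 were lower and 0 higher (median -1.22, sum 432 to 518 in IN and 178 to 246 in IP), but with deposited TPM 9 were higher and 5 lower (median 0.83, against 1.84 for all genes). All 8 satellite glia markers (967 to 1276 in IN, 127 to 290 in IP) and all 10 markers of myelinating Schwann cells (2514 to 3704 in IN, 410 to 1055 in IP) were lower, as were 6 of 6 fibroblast, 8 of 8 endothelial and mural and 6 of 6 tested macrophage markers, and none of these genes was at 0 in any library. With deposited TPM 7 of the satellite glia and 8 of the Schwann markers were still lower and 1 of each was higher, as were 1 fibroblast, 2 endothelial and mural and 1 macrophage marker. The IP library of female pool 2 stood apart, with the lowest share of TPM in protein-coding genes (44.9%, against up to 79.5%) and the highest summed level of glial, macrophage and large-diameter neuron markers among IP libraries. Their part in the results below was not tested.

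Between ribosome-bound and whole-ganglion RNA the 10 genes split. Prph, Tubb3, Mapt and Ina were higher in IP, Map2, Nefh, Nefm and Map1b were lower, and Nefl and Map1a did not pass the test (limma, paired by pool, adjusted over 16099 genes at 0.05). In all tested genes 79.4% passed, 40.5% as higher and 38.9% as lower, so 4 and 4 of 10 are close to the background, and the median change of the 10 genes was -0.03 beside 0.02 for all tested genes. The call of higher held under each of the 4 scalings tried for Prph, Tubb3, Mapt and Ina, whereas the lower calls held under 3 and turned to higher with deposited TPM, in which all 10 genes were higher in IP. The median log2 change over all tested genes was 1.84 with deposited TPM, 0.15 with quantile normalization and -0.20 with scaling to the protein-coding total. With deposited TPM 14623 of the 16099 genes were called higher. Leaving out female pool 2 kept the counts at 4 higher, 4 lower and 2 not past the test. Both libraries of a pool came from the same ganglia, but IN also held RNA of cells without the tag. A transcript more abundant in the tagged neurons and one more bound to ribosomes therefore cannot be told apart. Between pools of whole tissue, fewer cells of a type and less RNA per cell cannot be told apart either.

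**Figure D1:**
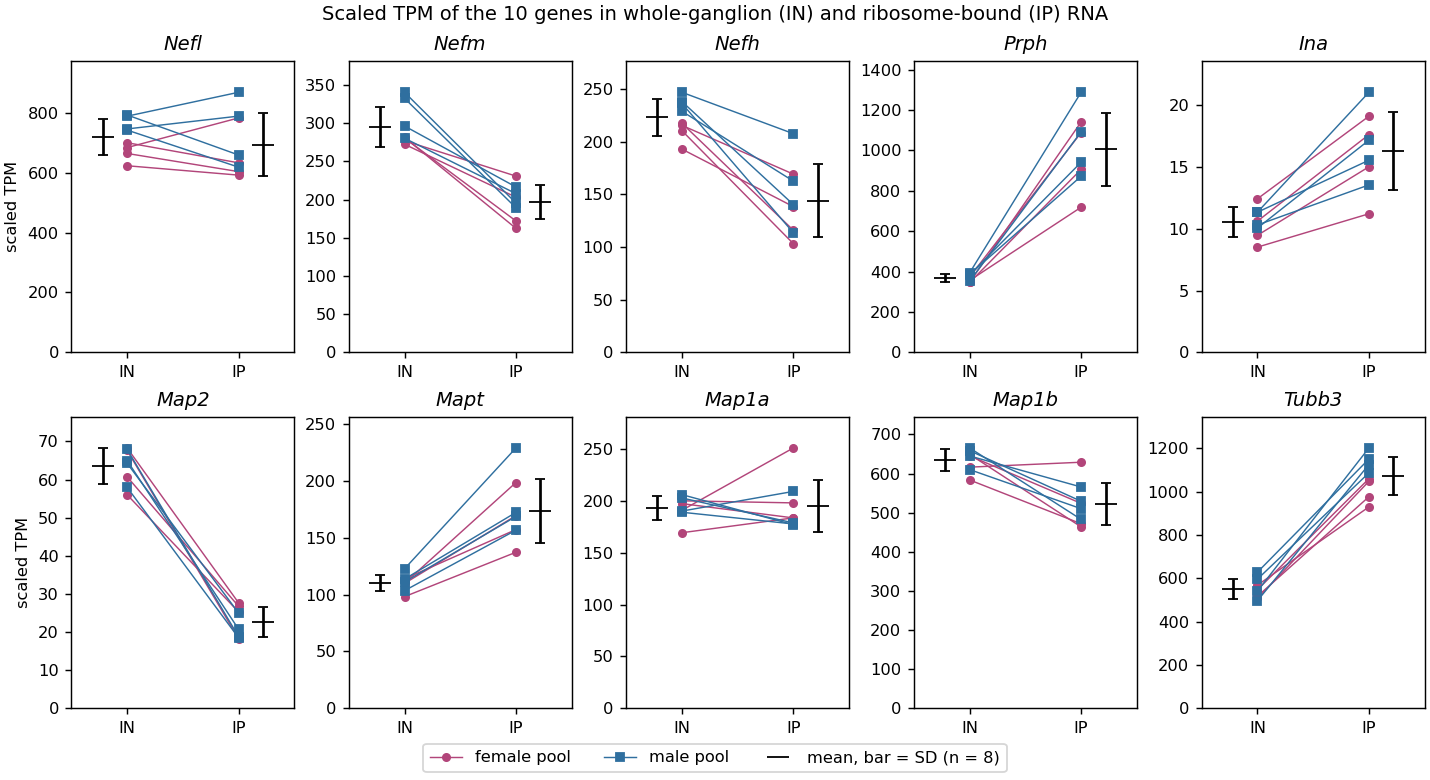
Scaled TPM of each gene in IN and IP, with a line joining the 2 libraries of a pool (circles female, squares male) and the mean with SD over 8 libraries at the sides. Prph and Tubb3 rise in all 8 pools and Map2, Nefm and Nefh fall in all 8 on this scale, while in deposited TPM, without scaling, all 10 genes are higher in IP.

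The neurofilament subunits did not move together. Nefl (ENSMUSG00000022055.7, chr14:68083863-68089095, plus strand, GRCm38) encodes the light subunit, the core of the filament, and was the most abundant of the 10 genes in IN, with a lowest, median and highest level of 623, 721 and 792. In IP it was at 592, 646 and 868. The fractions overlapped, IP was higher in 3 of 8 pools, and the change was -0.06 ± 0.07 on the log2 scale (SE, limma adjusted p = 0.48). Nefl was called lower with scaling to the protein-coding total (-0.30, limma adjusted p = 0.0018) and with a filter at a mean TPM of 5 (-0.18, limma adjusted p = 0.0345), was at 0.06 with quantile normalization, and was higher with deposited TPM (2.23).

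Nefm (ENSMUSG00000022054.11, chr14:68082590-68124846, minus strand), the medium subunit, ran from 272 over a median of 281 to 340 in IN. In IP it ran from 162 over 199 to 231, so that every IP library lay below every IN library. It fell by 0.58 on the log2 scale (SE 0.07, limma adjusted p = 3.5e-05), but with deposited TPM it was 1.70, or -0.14 once the median gene was subtracted. Nefl lies inside the annotated span of Nefm on the opposite strand, and in the GENCODE M21 annotation the first exon of Nefl-201 and the last exon of Nefm-202 share 1108 bases (chr14:68083863-68084970). Of the 50-base stretches in their transcripts, 31.79% in Nefl and 18.56% in Nefm are found on the opposite strand of another transcript. The strand setting of the counting was not given in the sources used here, and reads from that stretch cannot be told apart. On the same strand, at most 0.02% of the stretches of any of the 10 genes recur in another gene.

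Nefh (ENSMUSG00000020396.8, chr11:4938754-4948064, minus strand), the heavy subunit with the long phosphorylated tail, had a lowest, median and highest level of 193, 223 and 247 in IN. In IP these were 103, 139 and 208. Only the IP library of male pool 2 reached into the IN range, and IP was lower in 8 of 8 pools. Nefh fell by 0.66 on the log2 scale (SE 0.10, limma adjusted p = 0.00012), but with deposited TPM the change was 1.61, or -0.22 from the median gene.

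Prph (ENSMUSG00000023484.13, chr15:99055174-99058978, plus strand), which encodes peripherin, had the highest rise of the 10. It ran from 346 over a median of 365 to 395 in IN. In IP it ran from 719 over 1015 to 1287. The lowest IP value, in female pool 2, was still well above every IN value. The mean rose 2.73-fold (log2 1.43 ± 0.09, SE, limma adjusted p = 2.3e-07), with 1.01 in female pool 2 as the lowest and 1.71 in female pool 4 as the highest change of a pool. Of all tested genes, 99.4% had a lower change than Prph.

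Ina (ENSMUSG00000034336.3, chr19:47014698-47025327, plus strand), which encodes alpha-internexin, a filament protein best known from central neurons, was the least abundant of the 10. Its lowest, median and highest levels were 8.51, 10.5 and 12.4 in IN. In IP they were 11.2, 16.4 and 21.03, with the IP value of female pool 2 inside the IN range. Ina was higher in 8 of 8 pools, by 0.57 ± 0.06 on the log2 scale (limma adjusted p = 8.7e-06). Of its 50-base stretches 12.75% are found on the opposite strand of Nt5c2, another gene at this locus. Nt5c2 had a mean deposited TPM of 6.14 in IN and 25.2 in IP, beside 4.81 and 36.5 for Ina. As the strand setting was not given, reads from the shared stretch cannot be told apart.

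As parts of one pool of filament transcripts, the 5 intermediate filament genes changed places. Nefl made up 42.9% to 45.8% of their summed TPM in IN and 31.4% to 35.6% in IP. Nefm went from 16.3% to 19.5% in IN to 8.02% to 12.2% in IP, and Nefh from 13.3% to 14.3% to 5.74% to 8.32%. Prph made up 21.6% to 24.5% in IN and 43.2% to 54.0% in IP, where it was the largest part in all 8 libraries. Ina stayed under 1% in every library, with 0.586% to 0.809% in IN and 0.674% to 0.873% in IP. These shares need no scaling between libraries, and for Nefl, Nefm, Nefh and Prph the 2 fractions did not overlap. They may depend on how reads of the stretch shared by Nefl and Nefm were assigned, which is unknown. The shares within a library depend on one another, and such shares were not computed for other sets of genes. In scaled TPM, IN and IP did not overlap for 48.4% of single tested genes.

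**Figure D2:**
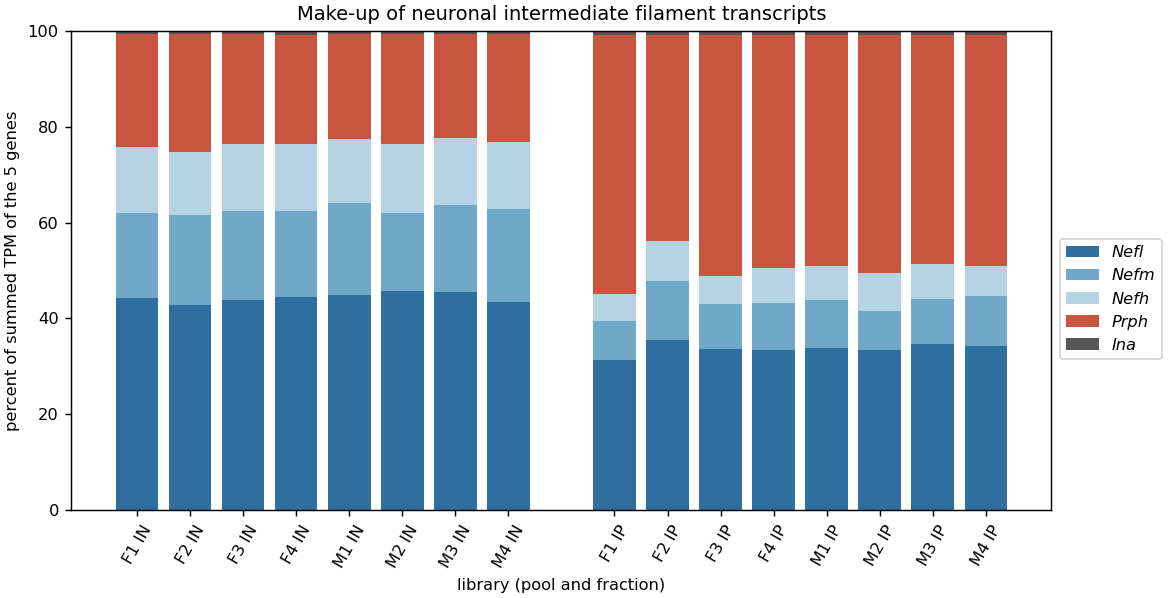
Share of each gene in the summed TPM of Nefl, Nefm, Nefh, Prph and Ina, 1 bar per library (F female, M male pools), IN on the left and IP on the right. Prph takes 21.6% to 24.5% of the bar in IN and 43.2% to 54.0% in IP, and the IP bar of female pool 2 has the smallest Prph part among the IP libraries.

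Map2 (ENSMUSG00000015222.17, chr1:66175273-66442583, plus strand), the dendritic and somatic microtubule-associated protein, had the lowest change of the 10. Its levels in IN were 56.0 at the lowest, 64.6 at the median and 68.3 at the highest. In IP they were 18.3, 22.9 and 27.7, and no IP library reached the IN range. The mean in IP was 0.356 of that in IN (log2 -1.46 ± 0.09, limma adjusted p = 1.7e-07), with 7.88% of tested genes below it. With deposited TPM the change of Map2 was 0.76, or -1.07 from the median gene.

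Mapt (ENSMUSG00000018411.17, chr11:104231390-104332090, plus strand), which encodes tau, went the other way. It was at 98.1, 110 and 123 (lowest, median and highest) in IN. In IP it was at 137, 169 and 229, with no overlap. The rise was 0.64 ± 0.06 on the log2 scale (limma adjusted p = 2.5e-06), seen in 8 of 8 pools and under each scaling, from 0.26 with quantile normalization to 2.91 with deposited TPM.

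Map1a (ENSMUSG00000027254.13, chr2:121289600-121310832, plus strand) was at 169, 194 and 206 (lowest, median and highest) in IN. In IP it was at 177, 184 and 251, and the ranges overlapped. The change was 0.00 ± 0.07 with IP higher in 3 of 8 pools (limma adjusted p = 0.95). Under quantile normalization it was -0.31 and under scaling to the protein-coding total -0.23, both past the test, and with deposited TPM 2.28.

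Map1b (ENSMUSG00000052727.6, chr13:99421446-99516540, minus strand) stood second to Nefl in IN, at 583, 645 and 665 (lowest, median and highest). In IP it was at 464, 517 and 629. The IP library of female pool 4 was the only one inside the IN range. Map1b fell by 0.29 on the log2 scale (SE 0.07, limma adjusted p = 0.0028), with IP lower in 7 of 8 pools. Its call was lost without the filter on low values (-0.11, limma adjusted p = 0.25), and with deposited TPM it turned positive, also from the median gene (0.16).

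Tubb3 (ENSMUSG00000062380.4, chr8:123411424-123422015, plus strand), the neuronal beta-tubulin widely used as a neuron marker, was at 497, 544 and 628 (lowest, median and highest) in IN. In IP it was at 930, 1074 and 1202, with every IP library above every IN library. The mean rose 1.95-fold (log2 0.96 ± 0.07, limma adjusted p = 6e-07) with 0.71 in female pool 2 as the lowest and 1.18 in male pool 2 as the highest change of a pool. Over the 10 genes, 5 had IN and IP ranges that did not overlap (Nefm, Prph, Map2, Mapt and Tubb3), against 48.4% of all tested genes, and 7 moved in one direction in every pool, against 66.3%.

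**Figure D3:**
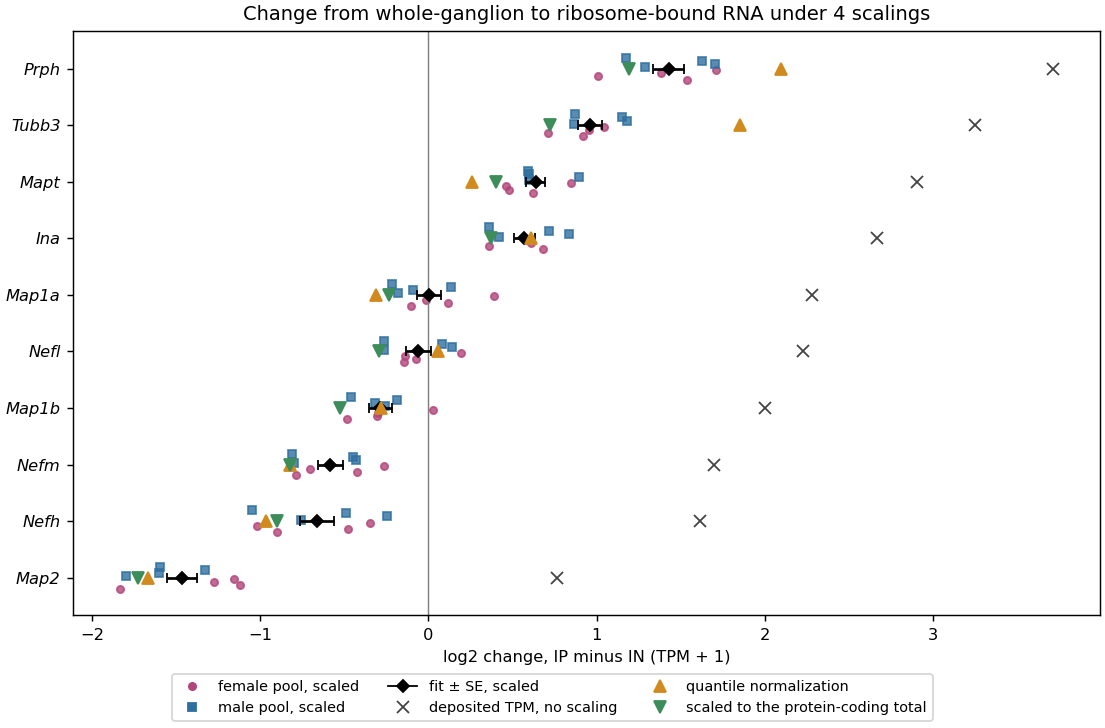
Log2 change from IN to IP per gene: small symbols are pools, the diamond with bar is the limma estimate with SE, and the other symbols are the estimates under 3 other scalings. Prph, Tubb3, Mapt and Ina lie above 0 under all 4 scalings, whereas Map2, Nefh, Nefm and Map1b lie below 0 under 3 and above 0 with deposited TPM (crosses), and Nefl and Map1a change sign among the scalings.

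Ratios of TPM between genes of one library are not changed by a factor applied to the whole library, though quantile normalization, which reshapes each library, does change them, and 10 were tested with a two-sided exact sign-flip permutation test over the 8 pools. All 10 moved in one direction in 8 of 8 pools, with an exact permutation p = 0.0078, the smallest that 8 pools allow. The Benjamini-Hochberg adjusted value was 0.0078. The ratios share genes, mainly Nefl and Tubb3, so they are not separate results. How many other gene pairs do the same was not computed, and 66.3% of single tested genes kept one direction in every pool. The medium to light subunit ratio, Nefm to Nefl, was 0.356 to 0.448 in IN and 0.239 to 0.343 in IP (log2 change -0.53 ± 0.03, SE, n = 8, exact permutation test). Nefh to Nefl was close to constant in IN, at 0.301 to 0.318, and 0.171 to 0.239 in IP (-0.61 ± 0.07). So both heavier subunits were lower relative to the light one in ribosome-bound RNA, and with quantile normalization they were as well (-0.88 and -1.02). Reads of the stretch shared by Nefl and Nefm cannot be told apart, which may affect every ratio with Nefl.

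Prph to Nefl was 0.474 to 0.573 in IN and 1.22 to 1.72 in IP, a change of 1.49 ± 0.06. Peripherin transcripts were thus fewer than those of the light subunit in every IN library and more in every IP library. Prph to Nefh was 1.55 to 1.85 in IN and 5.20 to 9.38 in IP, a 4.28-fold change (log2 2.10 ± 0.11), and without female pool 2 it was 2.18. Ina to Nefl was 0.0135 to 0.0182 in IN and 0.0190 to 0.0278 in IP (0.67 ± 0.05).

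Relative to Tubb3, the tubulin gene, all 4 microtubule-associated protein genes were lower in IP. Map2 to Tubb3 was 0.0922 to 0.131 in IN and 0.0161 to 0.0272 in IP (-2.47 ± 0.12). Map1b to Tubb3 was 1.02 to 1.33 in IN, so Map1b was the more abundant in each IN library, and 0.419 to 0.600 in IP (-1.25 ± 0.06). Map1a to Tubb3 changed by -0.96 ± 0.08, and Mapt to Tubb3 by -0.32 ± 0.05. The Mapt to Tubb3 ratio was the one of the 10 with overlapping fractions, at 0.165 to 0.247 in IN and 0.136 to 0.204 in IP. Map1a to Map1b rose from 0.287 to 0.333 in IN to 0.336 to 0.399 in IP (0.29 ± 0.04), but with quantile normalization the change was -0.026 ± 0.063, higher in 3 of 8 pools (exact permutation p = 0.68), so the difference between these paralogs depends on that choice. The other 9 ratios kept their direction in 8 of 8 pools with quantile normalization, where Mapt to Tubb3 changed by -1.60, Map1a to Tubb3 by -2.16 and Map1b to Tubb3 by -2.14.

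**Figure D4:**
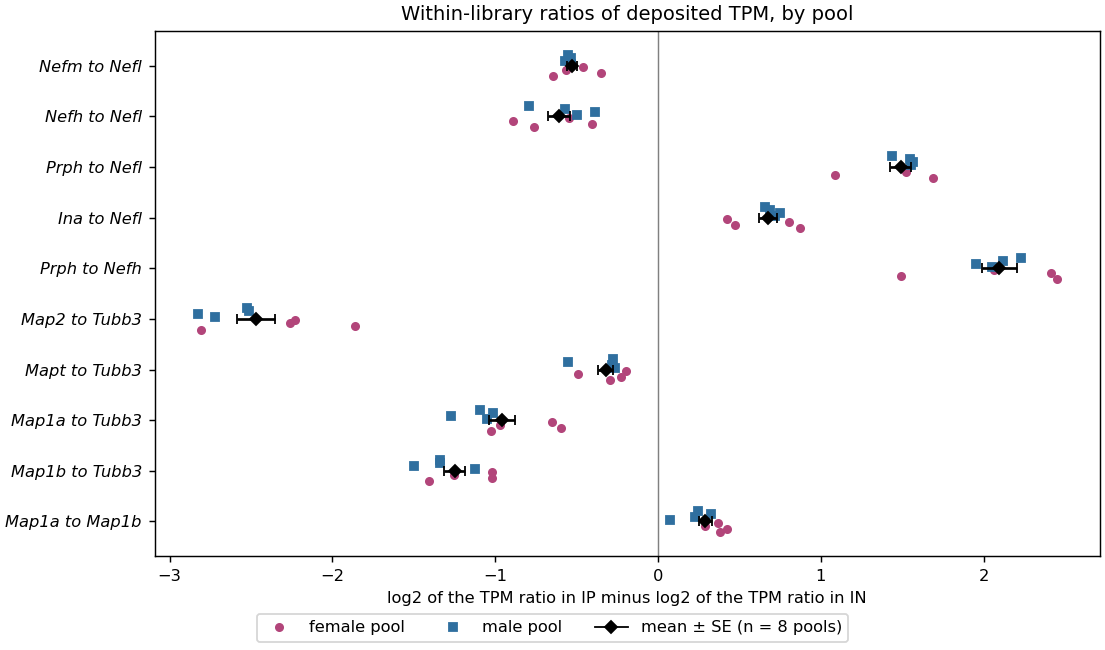
Change of each within-library ratio from IN to IP on the log2 scale, with pools as small symbols (circles female, squares male) and the mean with SE over 8 pools as diamonds. All pools lie on one side of 0 for each ratio, from -2.47 on average for Map2 to Tubb3 to 2.10 for Prph to Nefh, but with quantile normalization Map1a to Map1b is at -0.026.

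The order of levels, compared per transcript length in scaled TPM, was the same in every IN library: Nefl, Map1b, Tubb3, Prph, Nefm, Nefh, Map1a, Mapt, Map2 and Ina, each above the next in 8 of 8. In IP it was Tubb3, Prph, Nefl, Map1b, Nefm, Map1a, Mapt, Nefh, Map2 and Ina. Tubb3 and Prph were not separated there, with Tubb3 above in 5 of 8 libraries, nor were Nefm and Map1a, with Nefm above in 5 of 8. Map1a lay above Mapt, Mapt above Nefh and Map2 above Ina in 7 of 8, and the other neighbours kept their order in 8 of 8.

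For each gene, the 12707 genes compared were ranked by the root mean square difference of centred log2 levels over the 16 libraries, a measure that is low where 2 genes move alike. The nearest to Prph were Avil, an actin regulator (0.07), and Anxa5, an annexin (0.08). Nearest to Tubb3 were Ubb, a ubiquitin gene (0.05), and Psmb3, a proteasome subunit (0.05). For Nefh they were Myh10 (0.10) and Myh14 (0.12), heavy chains of nonmuscle myosin, and for Map2, with less near neighbours, Galm and Rlbp1 (0.15 each). Both were far lower than Map2 (means 63.5 in IN and 22.6 in IP), Galm at 5.91 and 1.67 and Rlbp1 at 2.23 and 0.263. At such levels the added 1 understates a change, so their likeness to Map2 is partly one of scale. Nearest to Nefl were Cdc42ep2 and Dtymk, to Nefm Gpt and Grhpr, and to Ina Mvb12a and Cpox. For Mapt they were Zfp593 and Rnf187, for Map1a Bccip and Incenp, and for Map1b Mfap1b and Poc5. These differences ran from 0.07 to 0.11, and whether neighbours share a function was not tested. Among the 10 genes themselves, Ina and Mapt were the nearest pair (0.11), Nefm and Nefh were each other's nearest (0.17), and Map2 had no other gene of the 10 closer than 0.48.

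Other cytoskeletal genes were counted in 9 lists, beside the background of 40.5% higher and 38.9% lower, and the lists were not tested as sets. That background shifts with the scaling. Of all 16099 tested genes, 14623 were called higher and 935 lower with deposited TPM. The counts were 4380 and 8116 with scaling to the protein-coding total, and 7935 and 5044 with quantile normalization. Of 14 other tubulin genes tested, 10 were higher and 2 lower in IP (median log2 0.93; 13 higher and 0 lower with deposited TPM). Tubb2b rose from 95.0 to 298 (1.64 ± 0.08), Tubb2a by 1.42 and the main alpha-tubulin gene Tuba1a from 426 to 953 (1.17 ± 0.07). Tubb6, a beta-tubulin of many non-neuronal cells, fell by 1.39 on the log2 scale but was at 0.07 with deposited TPM. The 7 tubulin folding cofactor genes had 5 higher, among them Tbcc (1.08) and Tbca (0.96), and 2 lower, Tbcel (-0.25) and Tbce (-0.13), with all 7 higher in deposited TPM.

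Of 10 other intermediate filament genes tested, 2 were higher and 5 lower (median -0.26; 6 higher and 2 lower with deposited TPM). The glial and mesenchymal filament genes fell: Gfap by 2.42, Nes by 2.18 and Vim by 2.16, from 130 to 30.0, on the log2 scale. With deposited TPM Gfap was still lower (-0.65), while Nes (-0.23) and Vim (0.09) did not pass. Sync, a muscle filament partner (0.60), and Lmna, the nuclear lamin A gene (0.51), rose. Glial and fibroblast markers were lower in the same libraries, with summed levels as given above.

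Of 39 other microtubule-associated protein genes, 22 were higher and 9 lower (median 0.26), a split that became 13 and 16 with scaling to the protein-coding total and 39 and 0 with deposited TPM. Eml1 rose by 1.31 ± 0.11 and Tppp3 from 524 to 1289 (1.29 ± 0.19). Map1lc3b, an autophagy protein that also binds microtubules, rose by 1.11 ± 0.26 and was higher in 6 of 8 pools. Clip1, a plus-end binding protein (-0.88), Eml5 (-0.69) and Tppp (-0.58) were lower, but higher with deposited TPM (1.24, 1.33 and 1.38).

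Among 16 stathmin, CRMP and severing enzyme genes, 10 were higher and 6 lower (median 0.32; 15 and 0 with deposited TPM). The tubulin-binding stathmins rose: Stmn1 by 1.119, Stmn3 by 0.93 and Stmn2 by 0.90. The severing enzyme gene Fign (-1.54), the katanin-related Katnbl1 (-0.81) and Fignl2 (-0.58) were lower, and with deposited TPM only Fign of these was not higher (-0.06). Of 16 tubulin-modifying enzyme genes, 7 were higher and 4 lower (4 and 6 with scaling to the protein-coding total, 16 and 0 with deposited TPM). Vash1, a detyrosinating enzyme (0.82), and the ligase-family genes Ttll1 (0.82) and Ttll7 (0.62) were higher. Atat1, the alpha-tubulin acetyltransferase, fell from 4.28 to 1.64 (-1.01), and Ttll4 (-0.96) and Agbl4 (-0.61) were lower, all 3 higher with deposited TPM.

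Of 25 kinase and phosphatase genes that act on tau and neurofilaments, 15 were higher and 6 lower (12 and 9 with quantile normalization or the protein-coding total, 25 and 0 with deposited TPM). Mapk3, which encodes ERK1 (0.90), Cdk5r2, an activator of CDK5 (0.84), and Ppp3ca, a calcineurin subunit (0.60), were higher. Mark1 (-0.44), Dyrk1a (-0.38) and Mark3 (-0.32) were lower, but higher with deposited TPM. Of 8 genes of neurofilament organisation and turnover, 5 were higher and 2 lower (8 and 0 with deposited TPM). The dynactin subunit gene Dctn1 (0.99) and the kinesin gene Kif5a (0.77), both of axonal transport, were higher, as was Trim46 (0.38). Kif5c (-0.26) and the myosin gene Myo5a (-0.11) were lower, and Trim2, a ligase that binds the light subunit, had a change of -0.53 that did not pass (limma adjusted p = 0.054).

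Spectrin, ankyrin, adducin and plakin genes, which build the membrane skeleton, were mostly lower, 10 of 19, with 4 higher (median -0.19; 17 higher and 0 lower with deposited TPM). Epb41l2 (-2.31), Add3 (-1.98) and the beta-spectrin gene Sptb (-1.17) were lower, and with deposited TPM they were at -0.17, 0.10 and 0.96. Add2 (0.95), Ank2 (0.36) and Ank1 (0.33) were higher, and Ank1 did not pass with quantile normalization or the protein-coding total. Without female pool 2, the counts of the 9 lists moved by at most 1 gene.

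**Figure D5:**
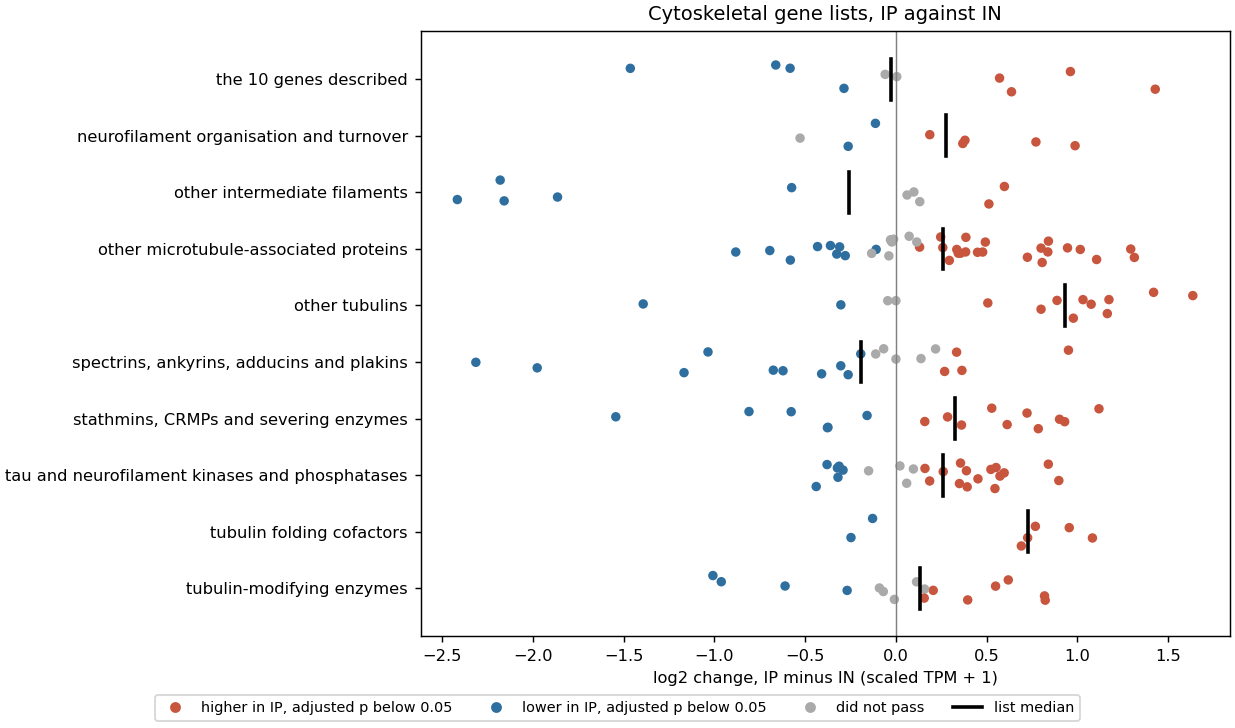
Log2 change from IN to IP (scaled TPM plus 1) of the tested genes of each list, coloured by the limma call, with the list median as a black bar. Tubulins and their folding cofactors lie mostly to the right (medians 0.93 and 0.73) and spectrins and related genes to the left (median -0.19), while with deposited TPM most genes of every list lie above 0.

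Female and male pools were compared within each fraction and for their IP to IN change, and the female and male fits share no library. Within females Prph, Tubb3, Mapt and Ina were higher in IP and Map2, Nefh and Nefm lower, beside a background of 66.3% called, 32.8% as higher and 33.5% as lower. Within males the same 7 genes were called the same way, and Map1b was lower as well, beside 70.2%, 35.2% and 35%. Yet with deposited TPM all 10 genes were higher in IP in each sex. There 14257 of 16115 tested genes were called higher in females and 14615 of 16061 in males. Map1b was at -0.26 in females (limma adjusted p = 0.12) and -0.31 in males (limma adjusted p = 0.021), and the interaction of sex and fraction was 0.04 ± 0.15. For all 10 genes the interaction did not pass in limma (adjusted p = 1 for each, background 0.0184%, and 0 of the 10 under an unadjusted p of 0.05, beside 2.79%), and the highest was Map2 with 0.24 ± 0.17 (unadjusted p = 0.20). The male call of Map1b was lost when male pool 1, 2 or 4 was left out (adjusted p = 0.053, 0.063 and 0.057). Without the filter on low values Nefm lost its call in females (limma adjusted p = 0.085). In males Nefh (limma adjusted p = 0.063) and Map1b lost theirs, which left 2 genes lower in each sex.

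In IN, scaled over the IN libraries alone, none of the 10 genes differed between the sexes in limma after adjustment (adjusted p from 0.95 to 0.99, background 0.0883%), and 2 had an unadjusted p under 0.05, beside 4.97% of tested genes. These were Nefl, at 303 ± 13.8 in female and 348 ± 12.8 in male pools (SD, n = 4, log2 -0.20, limma adjusted p = 0.95), and Nefh, at 94.8 ± 4.72 and 108 ± 3.78 (log2 -0.18, limma adjusted p = 0.95). For both, every female pool lay below every male pool, which 3.05% of tested genes showed in either direction. In the same libraries markers of myelinating Schwann cells had a median of -0.21 and those of large-diameter neurons -0.06, with 0 of 10 and 0 of 14 past the test, and their part was not tested.

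In IP, scaled over the IP libraries alone, 0 of the 10 differed between the sexes in limma (adjusted p = 0.9998 for each, background 0.0375%). An unadjusted p under 0.05 was found for 0 of them, beside 2.44% of tested genes. Levels on this scale are not those given above for both fractions. Tubb3 was the one gene without overlap, at 2229 ± 144 in female and 2525 ± 121 in male pools (SD, n = 4, log2 -0.18), against 1.74% of tested genes. Of the 10 ratios, Map1a to Tubb3, Map1b to Tubb3 and Map1a to Map1b did not overlap between the sexes in IP. Each had an exact permutation p = 0.029, the smallest that 4 against 4 allows, but did not pass after adjustment (0.095). These ratios are built from the same few genes, Tubb3 among them, so they are not separate observations. The share of all gene pairs without overlap was not computed.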

How the data were processed

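RNA-seq was done on IN and IP libraries of 8 pools. The submitters' processing notes list FastQC, STAR 2.2.1, StringTie 1.3.5 and the build GRCm38.p5. Strand setting and annotation release were not given in the sources used here. Because each library sums to 1000000, the deposited column was taken for TPM made by the authors, although the header calls the last column Coverage. Repeated gene IDs were summed (17 to 21 per library), 92 ERCC entries were left out, and no pair of libraries was identical. The pools are separate animals per the series design text.

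Genes with a mean TPM of at least 1 in a compared group were scaled by median of ratios (geometric mean as reference) and fitted as log2(scaled TPM + 1), a scale that understates changes of low genes, with limma 3.58.1 (R 4.3.3, intensity trend, two-sided, Benjamini-Hochberg, 0.05). The pool was a block for IP against IN and for the interaction, by the design text; the deviations of the 2 libraries of a pool correlated at 0.01 to 0.41. Ratios used deposited TPM. In simulated log2 values 200 of 16099 genes were changed, far fewer than the 79.4% called in the data. There IP against IN recovered 77.3% of changes of 0.5, 91.0% of 1 and 100% of 2 on the log2 scale, and 0.0629% of unchanged genes. The simulation left out the scaling, so these rates do not cover errors from that step.

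Genes named are the 10, Scn10a, up to 3 highest and 3 lowest per list, and the 2 nearest in profile. The genes, lists and tests were chosen with earlier results of these data known. Alternatives were other scalings, pseudocounts, filters, no trend, the replicate block and each pool left out. Promoters are RefSeq's, exon overlaps GENCODE M21's. Python 3.11.15 with numpy 2.4.6, pandas 2.3.3, scipy 1.17.1 and matplotlib 3.10.9 was used.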

Additional observations from a re-analysis of the deposited data

Results flagged for a closer look

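In 70 groups of libraries or pools checked for a single value far from the rest, 3 were found, where chance gives about 1 in 20. Map1a in the male IP libraries was at 209.2 scaled TPM in pool 3 and at 177 to 178.8 in the other 3. The Prph to Nefl change was 1.09 on the log2 scale in female pool 2 and 1.44 to 1.69 in the other 7 pools, and female pool 2 also had the lowest protein-coding share and the highest glial marker sums of the IP libraries, whose part was not tested. The share of Ina in the filament TPM was 0.809% in the IN library of female pool 4 and 0.586% to 0.671% in the other 7 IN libraries.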

How the results depend on the processing

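The 10 within-library ratios kept their direction and stayed past the threshold with the pseudocount, without the pairing and with each pool left out; with quantile normalization, an alternative chosen after seeing the data, Map1a to Map1b turned to -0.026 and the other 9 held. Prph, Tubb3, Mapt and Ina stayed higher in IP, and past the threshold, under every alternative of the IP to IN comparison. With deposited TPM the lower or near-zero changes turned positive: over all pools Nefl 2.23, Nefm 1.70, Nefh 1.61, Map2 0.76 and Map1b 1.999, in females 2.12, 1.61, 1.46, 0.76 and 1.89, and in males 2.34, 1.79, 1.77, 0.77 and 2.11, with Map1a at 2.32. Map1a over all pools turned to -0.31 with quantile normalization and -0.23 with the protein-coding total. The share of calls that were higher was 51.0%, and 94.0% with deposited TPM, 61.1% with quantile normalization, 35.1% with the protein-coding total and 39.7% without a filter. Without a filter the calls rose from 12783 to 21311 over all pools and from 11273 to 17556 in males, as more genes were tested. Sex calls in IN fell from 12 to 6 with a filter at a mean TPM of 5, where Ina was not tested, and to 7 with the replicate block; those in IP, 6, were 5 with the block and 5 to 12 with a pool left out, the highest without female pool 4. Female and male pools share only a number (deviations of same-numbered pools correlated at -0.30 to 0.10). Interaction calls were 3, 9 with deposited TPM, 1 with quantile normalization, 0 without a filter and 0 to 6 with a pool left out (6 without female pool 2, 0 without female pool 3 or male pool 1); the cause was not tested. Leaving out the pool block changed no call of the 10 genes over all pools, and the depth, which limits low genes such as Ina, is unknown.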

Other observations

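The 10 genes differ in the length of the gene body, introns included, from 3.81 kb for Prph to 267 kb for Map2, the genes with the highest and the lowest change in IP. Over the 10 genes the Spearman correlation of gene span with the change was -0.42, and over 12902 tested nuclear protein-coding genes -0.26; both are descriptions over genes of the same 16 libraries, which share their scaling, and genes are not independent replicates. Among protein-coding genes under 10 kb the median change was 0.22 (3044 genes), and among those of 100 kb or more it was -0.32 (2015 genes). Mapt, at 101 kb, was higher in IP (0.64), and Nefh, at 9.31 kb, was lower (-0.66), so neither followed that order. Whether gene span has a part in the changes of the 10 genes was not tested.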
